A study of Mus musculus with 6 samples.

Results

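The citrate cycle and the oxidation of fatty acids were examined through 41 genes of M-MDSCs, the monocytic subset of myeloid-derived suppressor cells, which restrain T cell responses. The genes were chosen by name from the 34745 genes of the count table, as enzymes of the cycle, of glutamate breakdown, of fatty acid uptake and of beta-oxidation, together with regulators of these enzymes. RNA came from cells of mouse bone marrow of the labelled strain C57BL/6, in 3 libraries with the genotype label mTOR knock-out (mTOR-/-) and 3 WT libraries. The series describes M-MDSCs induced from Lyz-mTOR mice and WT mice, and the study's methods give culture with GM-CSF and IL-6. The labels call the cells sorted and fresh, and give no age, agent or batch.

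Lyz-mTOR mice carry floxed alleles of mTOR and a Cre recombinase driven by the lysozyme promoter, so that the deletion is aimed at myeloid cells and other cells of the host keep the kinase. The methods describe the WT C57BL/6 mice as purchased and the Lyz-Cre and floxed mice as a gift of another institute, so that the source of the mice, Cre itself and the deletion cannot be told apart. The methods give 3 as the number of mice or samples per group without tying a library to a single animal, and the p-values below measure the spread between these libraries. Total counts were 12317507 to 12903191 in the mTOR-/- libraries and 14066578 to 14768126 in the WT libraries. Counts of the targeted gene, Mtor, were 883, 983 and 908 with the mTOR-/- label and 980, 875 and 929 with the WT label (log2 fold change 0.15, standard error 0.11, edgeR adjusted p = 0.442). The whole-gene counts did not separate the labels and do not resolve single exons, so all directions rest on the labels. The study genotyped its mice by PCR and describes a separate check of mTOR depletion in MDSCs, neither of which was analysed here. Library 3 of the mTOR-/- group stood apart, with correlations across genes of 0.955 and 0.952 to its group against 0.973 between the other mTOR-/- libraries and 0.978 to 0.981 between WT libraries. Of the monocyte markers, Cd14 and Csf1r were called higher and Ly6c2 lower in mTOR-/- libraries, and the summed level of the 6 markers was 1350 to 1793 CPM (counts scaled to a common library total after TMM scaling of the libraries) against 1438 to 1599 CPM. Cd3e, Cd4 and Cd8a of T cells were at 0 in every library.

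Mitochondria burn acetyl-CoA in the citrate cycle, which hands electrons to the respiratory chain. Fatty acids reach this cycle after uptake, transfer across the mitochondrial membrane on carnitine, and repeated removal of acetyl units by beta-oxidation, with the electrons of its dehydrogenases passed on by electron transfer flavoprotein. The nuclear receptors of the PPAR family and their coactivators switch on many of these genes. The kinase mTOR couples cell growth to nutrient supply and is known to act on mitochondrial metabolism, and suppressive myeloid cells are known to draw on fatty acid oxidation. The comparison asks whether the transcripts of these enzymes differed between mTOR-/- and WT M-MDSCs.

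The promoters of these genes are shown because coordinated nuclear genes for mitochondria often carry a site for nuclear respiratory factor 1. RefSeq promoter windows of 300 bases on GRCm38.p6 were given for 38 of the 41 members. The core motif GCGCATGC was searched on both strands, and 6 members (15.8%) held it, against 6.16% of 9270 tested genes with a window. Both shares count a gene once over all its windows, and the 6 include Ppara, which was not among the tested genes. Counted per window instead, 2.71% of all 32851 windows held it. The other motifs searched, also on both strands, stood in at most 1 member. CACGTG, the E-box, stood in 1 member (2.63%), Ogdh, against 12.01% of tested genes. TNAAGGTCA, the site of estrogen-related receptors, and the direct repeat of AGGTCA spaced by 1 base, the site of PPARs, stood in 0 of 38 members, against 0.82% and 0.022% of tested genes. Both are so rare among tested genes that 0 of 38 does not set the members apart. A match is a description of letters, and its absence says nothing about the factor. The 6 stretches with the nuclear respiratory factor motif follow, 5′ to 3′ on the strand of the gene, with the motif in capitals. In Etfdh and Ppara, matches on both strands overlap, and in Acadm and Glud1 the match is on the reverse strand, so its letters read GCATGCGC. They lie at chr3:79628867-79628916 on the minus strand for Etfdh, chr3:153944773-153944822 on the minus strand for Acadm, and chr9:55512320-55512369 on the minus strand for Etfa. For Ogdh, Glud1 and Ppara they lie on the plus strand, at chr11:6292522-6292571, chr14:34310574-34310623 and chr15:85735724-85735773.
Etfdh: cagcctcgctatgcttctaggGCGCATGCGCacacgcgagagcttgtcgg
Acadm: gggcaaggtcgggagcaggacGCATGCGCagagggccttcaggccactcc
Etfa: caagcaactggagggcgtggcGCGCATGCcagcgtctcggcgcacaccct
Ogdh: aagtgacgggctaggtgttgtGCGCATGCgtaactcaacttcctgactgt
Glud1: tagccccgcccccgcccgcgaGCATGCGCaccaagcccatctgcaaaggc
Ppara: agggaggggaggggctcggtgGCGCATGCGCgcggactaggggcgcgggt

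Among the 40 members with counts, citrate synthase transcripts were the most abundant per length and those of the coactivator Ppargc1b the least. Levels were compared between genes only as FPKM, the deposited counts scaled to gene length and library total, averaged over all 6 libraries. Cs, which joins acetyl-CoA to oxaloacetate, stood at 130 FPKM, followed by the glutamate dehydrogenase gene Glud1 at 83.0 FPKM and the long-chain acyl-CoA dehydrogenase gene Acadl at 77.1 FPKM. Next came Dlst at 74.7 FPKM and Dld at 71.4 FPKM, subunits of the 2-oxoglutarate dehydrogenase complex. The median of these members was 10.6 FPKM, and Ppara was listed at 0 in every library. The low end held Cpt2 at 1.91 FPKM, Hadhb at 1.297 FPKM and Ppargc1b at 0.505 FPKM. In this order 35 of 39 neighbouring pairs overlapped across libraries, and the 4 that did not were Cs over Glud1, Sucla2 over Suclg2, Slc25a20 over Cpt2 and Hadhb over Ppargc1b. The gene lengths behind the FPKM differ from an exon count, which moves this order. The implied length of Cs was 2828 bases and its annotated exons cover 5779 bases, while Idh1 had 4520 and 2771 bases. Per base of annotated exon, Idh1 ranked 1 and Cs ranked 6, and 8 of the 10 highest genes were the same.

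No member passed the test of a difference between the groups. Of the 41 members, 40 passed the filter on low counts, with 18 to 5625 counts per library. Ppara, the nuclear receptor best known for switching on fatty acid oxidation in liver, had 0 counts in all 6 libraries, which allows up to 0.203 to 0.244 CPM by library (3 counts, counting error only). By edgeR's quasi-likelihood test, adjusted over all 12537 tested genes at 0.05, 0 members were called higher and 0 lower, where 2.18% of tested genes were called higher and 1.87% lower. At a change of at least 2-fold as well, 0 members were called in either direction, against 1.04% of tested genes higher and 0.654% lower. With an unadjusted p under 0.05 there were 3 members higher (7.5%) and 3 lower (7.5%), against a background of 11.7% and 9.52%. Run with DESeq2, 1 of the 40 members was called, Acadl, where 9.12% of the 12537 tested genes were called in either direction.

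The members' changes were small and lay on both sides of 0. Log2 fold changes, mTOR-/- over WT, ranged from -0.36 to 0.48, with 16 members higher and 24 lower, and their median was -0.04 (quartiles -0.18 and 0.05) beside 0.00 over all tested genes. All 40 lay within 0.5 on the log2 scale, as did 79.8% of tested genes. The 95% interval of the fold change lay inside 2-fold in either direction for 38 members (95%), against 71.4% of tested genes, and inside 1.5-fold for 29. The exceptions at 2-fold were the fatty acid receptor Cd36, with an interval of -0.20 to 1.16, and Ppargc1b, with -1.17 to 1.10. The median standard error was 0.13 for members and 0.17 for all tested genes. By library, the groups did not overlap for 3 members higher in mTOR-/- (Idh1, Idh3g and Acadvl, 7.5%, against 14.5% of tested genes) and for 4 members lower (Acadl, Ppard, Suclg1 and Cs, 10%, against 13.9%). In bulk RNA, fewer cells of a type and less RNA per cell cannot be told apart.

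**Figure D1:**
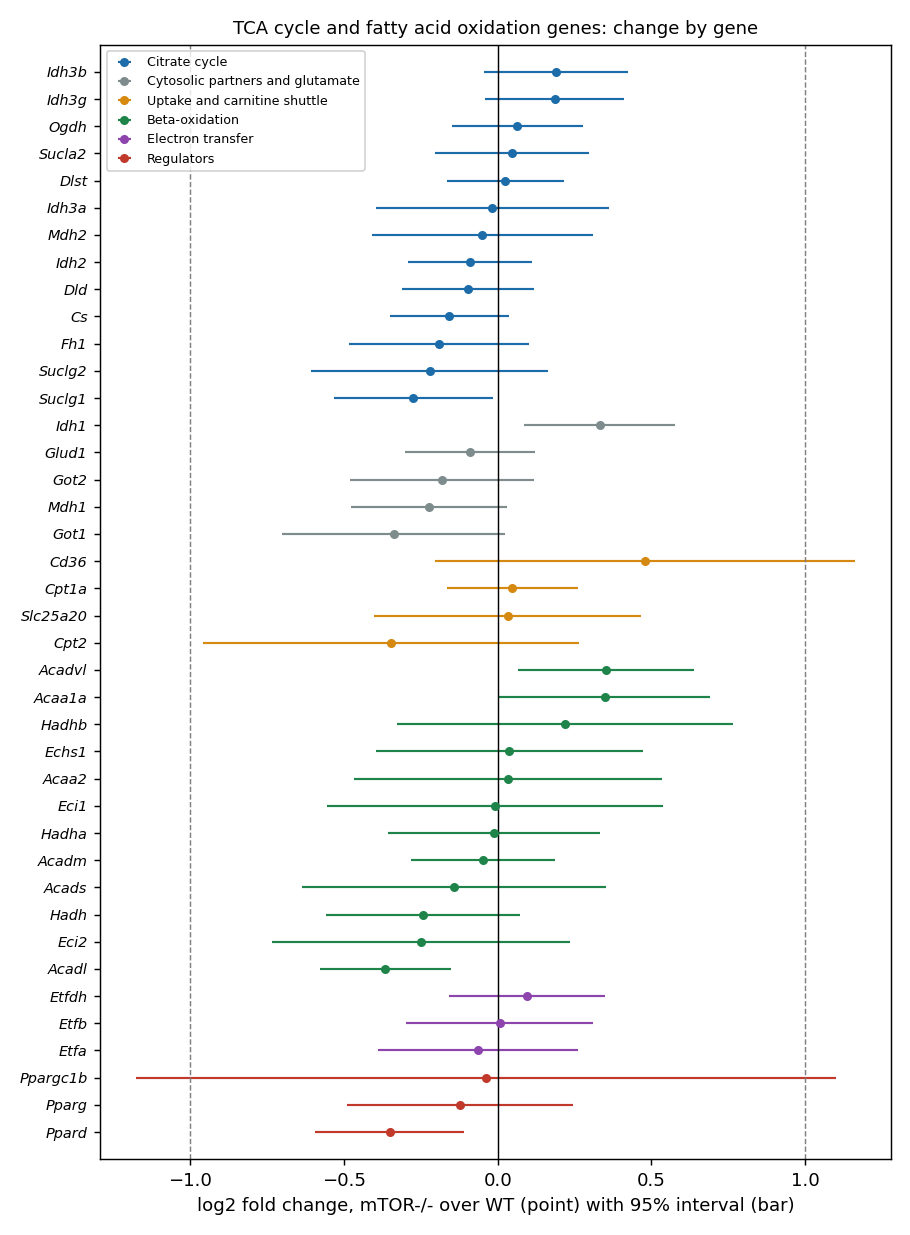
Log2 fold change of each of the 40 tested members, mTOR-/- over WT, with its 95% interval as a bar, coloured by role; dashed lines mark a 2-fold change. The points lie between -0.36 and 0.48, and only the bars of Cd36 and Ppargc1b reach past a dashed line.

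The summed expression of the citrate cycle enzymes was close between the groups. Its 13 members added up to 1734, 1768 and 1642 CPM in the mTOR-/- libraries and 1764, 1724 and 1795 CPM in the WT libraries, and the groups overlapped. Of these members, 5 were higher and 8 lower, with a median log2 fold change of -0.05. Cs, the entry enzyme, was at 354, 364 and 327 CPM in mTOR-/- libraries and 384, 383 and 399 CPM in WT libraries. All mTOR-/- values lay below all WT values, with means of 348 ± 19.3 and 388 ± 8.85 CPM (SD, n = 3), yet the difference did not pass the test (log2 fold change -0.16, standard error 0.09, edgeR adjusted p = 0.328).

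Suclg1 encodes the alpha subunit of succinate-CoA ligase, the step that makes nucleotide triphosphate directly. It was at 54.4, 58.5 and 46.9 CPM in mTOR-/- libraries and 63.4, 64.6 and 65.2 CPM in WT libraries, again without overlap (log2 fold change -0.27, standard error 0.12, edgeR adjusted p = 0.214). The alternative beta subunits were Suclg2, with a log2 fold change of -0.22, and Sucla2, with 0.05, and both overlapped between groups. The subunits of NAD-dependent isocitrate dehydrogenase did not lie on 1 side. Idh3g was at 89.3, 92.6 and 97.0 CPM in mTOR-/- libraries and 84.7, 85.9 and 74.8 CPM in WT libraries, which do not overlap, but its log2 fold change of 0.19 had an edgeR adjusted p of 0.327. Idh3b had the same log2 fold change of 0.19 and overlapped, and Idh3a, the catalytic subunit, stood at -0.02. The subunits of the 2-oxoglutarate dehydrogenase complex, Ogdh, Dlst and Dld, had log2 fold changes of 0.06, 0.03 and -0.10, all with overlap. Fumarase (Fh1) and malate dehydrogenase (Mdh2) stood at -0.19 and -0.05.

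The enzymes that link the cycle to the cytosol and to glutamate held 1 higher and 4 lower members, with none past the test. Idh1, the cytosolic NADP-dependent isocitrate dehydrogenase (chromosome 1, 65158616 to 65186500), was at 343, 274 and 279 CPM in mTOR-/- libraries and 222, 241 and 250 CPM in WT libraries. The lowest mTOR-/- library was above the highest WT library, at means of 299 ± 38.3 and 237 ± 14.3 CPM (SD, n = 3). The log2 fold change was 0.33 (standard error 0.11, edgeR adjusted p = 0.130), and 0.22 without mTOR-/- library 1. Its mitochondrial counterpart Idh2 was at 104, 108 and 110 CPM against 118, 109 and 115 CPM, which overlap, at a log2 fold change of -0.09. Got1, the cytosolic aspartate aminotransferase of the malate-aspartate shuttle, was at 72.9, 89.1 and 61.0 CPM against 78.1, 97.5 and 106 CPM. These ranges overlap, and the log2 fold change of -0.34 (standard error 0.16) had an edgeR adjusted p of 0.269 and was -0.22 without mTOR-/- library 3. The other members of this group, Mdh1, Got2 and Glud1, had log2 fold changes of -0.22, -0.18 and -0.09, each with overlap.

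Fatty acid uptake and the carnitine shuttle showed no member without overlap. Cd36, the scavenger receptor that brings long-chain fatty acids into the cell, had the highest log2 fold change of all members. It was at 50.7, 40.4 and 45.4 CPM in mTOR-/- libraries and 16.1, 39.4 and 42.6 CPM in WT libraries. WT library 1 alone was low, and the other WT libraries lay among or beside the mTOR-/- values. The log2 fold change was 0.48 (standard error 0.30, edgeR adjusted p = 0.401) and without WT library 1 it was 0.14. Cpt1a, the carnitine palmitoyltransferase of the outer membrane and the committed step of the pathway, was at 79.1, 76.8 and 82.9 CPM in mTOR-/- libraries. In WT libraries it was at 74.7, 76.3 and 80.1 CPM, nearly the same range, with a log2 fold change of 0.05 and a 95% interval of -0.17 to 0.26. Cpt2, the palmitoyltransferase of the inner membrane, had few counts, at 133, 127 and 81 against 180, 123 and 181, and a log2 fold change of -0.34 (standard error 0.27, edgeR adjusted p = 0.502). Without mTOR-/- library 3 it was -0.14 and without WT library 2 it was -0.52. The carrier Slc25a20 stood at 0.03.

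The 12 beta-oxidation enzymes held 5 higher and 7 lower members, with a median log2 fold change of -0.01. Among the acyl-CoA dehydrogenases, which open each round and differ by the chain length they take, the long-chain and the very-long-chain gene lay on opposite sides. Acadl (chromosome 1, 66830839 to 66863277) was at 151, 132 and 130 CPM in mTOR-/- libraries and 173, 173 and 185 CPM in WT libraries. Every mTOR-/- value was below every WT value, at means of 138 ± 11.8 and 177 ± 7.09 CPM (SD, n = 3). Its log2 fold change of -0.36 (standard error 0.09, 95% interval -0.58 to -0.15) had the smallest adjusted p of all members, 0.0669 with edgeR, and it passed the threshold with DESeq2 (adjusted p = 0.0199). Acadvl (chromosome 11, 70010183 to 70015411) was at 69.5, 78.5 and 94.7 CPM in mTOR-/- libraries and 61.5, 63.5 and 65.2 CPM in WT libraries, without overlap and with the highest value in mTOR-/- library 3. The log2 fold change was 0.35 (standard error 0.13, edgeR adjusted p = 0.158), and 0.22 without that library. Of the exon bases of Acadvl, 42.9% are shared with Dvl2, a Wnt signalling gene on the opposite strand, and the strand setting of the counting is not given in the sources used here. Dvl2 had a log2 fold change of 0.33 (edgeR adjusted p = 0.169), so reads of this pair may not be told apart. Acadm and Acads, for medium and short chains, had log2 fold changes of -0.05 and -0.14, and both overlapped.

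The mitochondrial trifunctional protein carries the later steps for long chains, and its subunit genes Hadha and Hadhb lie head to head on chromosome 5, with RefSeq start sites 273 bases apart. Hadha was at 98.4, 111 and 70.7 CPM in mTOR-/- libraries and 91.8, 96.9 and 93.4 CPM in WT libraries. The WT values lay inside the mTOR-/- range, at a log2 fold change of -0.01 (standard error 0.15, edgeR adjusted p = 0.975). Hadhb was at 8.31, 13.7 and 14.7 CPM against 11.7, 9.42 and 10.5 CPM, also with overlap, at a log2 fold change of 0.22 (standard error 0.24, edgeR adjusted p = 0.648) that ran from 0.06 without mTOR-/- library 3 to 0.43 without mTOR-/- library 1. Acaa1a, a thiolase of peroxisomes, was at 104, 71.4 and 88.5 CPM in mTOR-/- libraries and 63.2, 79.0 and 65.5 CPM in WT libraries. Those ranges overlap, and the log2 fold change of 0.35 had an edgeR adjusted p of 0.232 and was 0.20 without mTOR-/- library 1. The remaining enzymes, Hadh, Echs1, Eci1, Eci2 and Acaa2, had log2 fold changes of -0.24, 0.04, -0.01, -0.25 and 0.03, with overlap in each. The electron transfer genes Etfa, Etfb and Etfdh stood at -0.06, 0.01 and 0.10, also with overlap. Etfb shares 58.2% of its exon bases with other annotated genes on its own strand, and 31 of the 41 members share none with any gene.

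None of the 3 regulators with counts passed the test, and for Ppard alone among them the groups did not overlap. Ppard encodes PPAR-delta, the family member expressed in most tissues. It was at 53.2, 49.6 and 45.9 CPM in mTOR-/- libraries and 61.7, 65.4 and 62.6 CPM in WT libraries. The groups did not overlap, with a log2 fold change of -0.35 (standard error 0.11, 95% interval -0.59 to -0.11) and an edgeR adjusted p of 0.108. Pparg, the receptor known from adipocytes and alternatively activated macrophages, was at 24.6, 18.3 and 18.9 CPM against 23.5, 21.2 and 22.6 CPM. The highest value was in an mTOR-/- library, and the log2 fold change of -0.12 had an edgeR adjusted p of 0.711 and ran from -0.27 without mTOR-/- library 1 to -0.05 without mTOR-/- library 2. Ppargc1b, a coactivator of mitochondrial genes, had only 41, 18 and 24 counts in mTOR-/- libraries and 20, 37 and 39 counts in WT libraries. At this depth its log2 fold change of -0.04 had a standard error of 0.51, the widest of all members, so a 2-fold change was not detectable. The 5 tested members whose promoters are printed above, Etfdh, Acadm, Etfa, Ogdh and Glud1, had log2 fold changes of 0.10, -0.05, -0.06, 0.06 and -0.09. Nrf1, the gene of the factor itself, had one of -0.17 (edgeR adjusted p = 0.382), with every mTOR-/- library below every WT library.

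**Figure D2:**
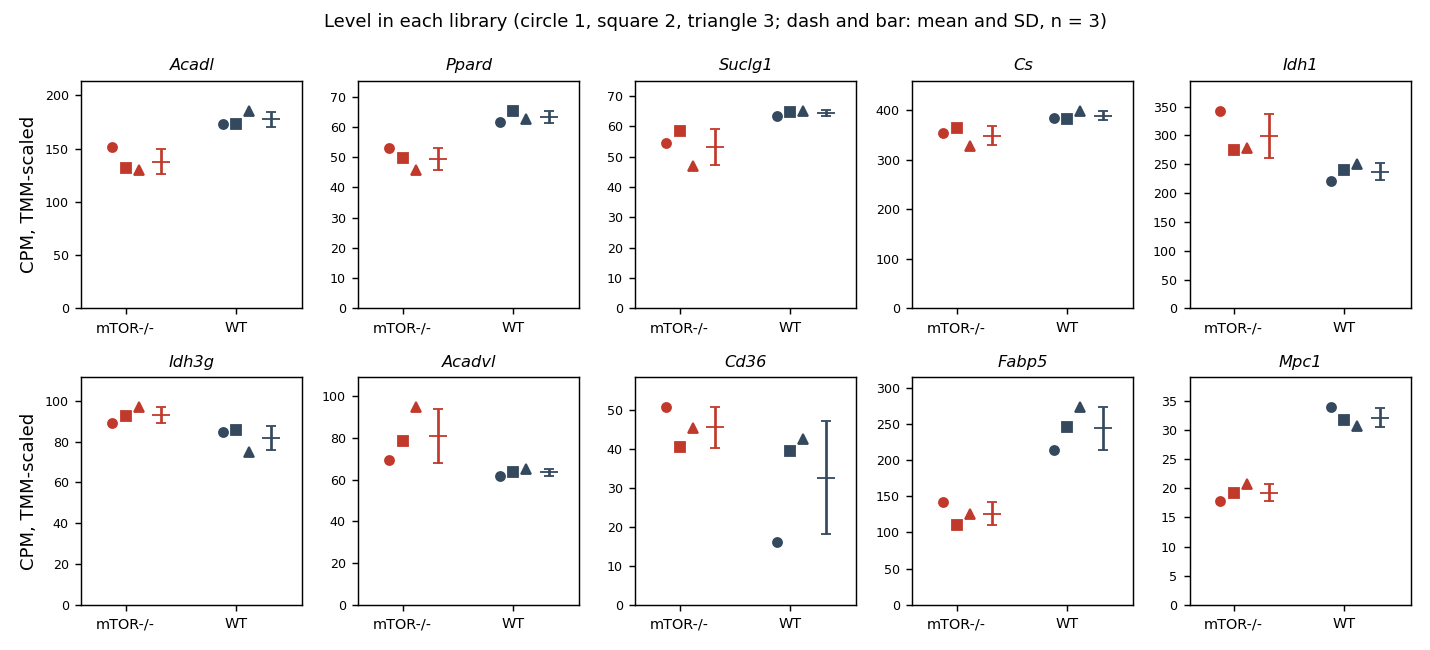
CPM after TMM scaling in each library for 8 members and for Fabp5 and Mpc1, with the mean and SD (n = 3) at the right of each group. Acadl, Ppard, Suclg1 and Cs lay lower in every mTOR-/- library, Idh1, Idh3g and Acadvl higher, and Cd36 overlapped, with WT library 1 at 16.1 CPM.

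The members lay farthest from the WT mean in mTOR-/- library 3, as did the tested genes in general. The median absolute difference from the WT mean, in log2 CPM, was 0.14, 0.16 and 0.27 for the members in mTOR-/- libraries 1, 2 and 3, and 0.22, 0.22 and 0.35 for all tested genes. With its sign kept, the median difference of the 40 members was -0.04, 0.04 and -0.22 in mTOR-/- libraries 1, 2 and 3, while that of the WT libraries ran from -0.03 to 0.04. The WT libraries are part of the mean that is subtracted, so they lie closer to it by construction. The median over all tested genes lay between 0.00 and 0.01 in every library. In mTOR-/- library 3, 27 of 40 members were below the WT mean, against 23 and 17 in mTOR-/- libraries 1 and 2. In WT libraries 1, 2 and 3 the number was 25, 23 and 14. Without mTOR-/- library 3 the median log2 fold change of the members was -0.00, and without mTOR-/- library 2 it was -0.12. The members took 0.380%, 0.391% and 0.356% of all counts in the mTOR-/- libraries and 0.374% to 0.386% in the WT libraries.

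**Figure D3:**
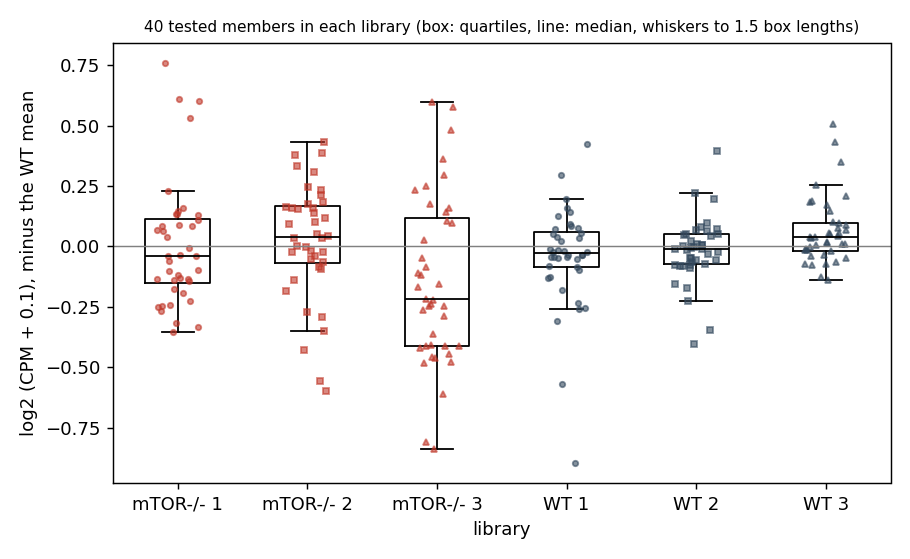
Difference of each tested member from its WT mean, on the scale log2(CPM + 0.1), for each of the 6 libraries; boxes give quartiles and the line the median. The median of mTOR-/- library 3 is -0.22, and the other medians lie between -0.04 and 0.04. WT libraries are part of the mean that is subtracted, so they lie closer to it by construction.

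Ratios between partner genes within a library do not depend on the scaling between libraries, and 12 pairs of subunits or of enzymes for 1 reaction were compared. Of these, 10 overlapped between the groups and 2 did not. Among single tested genes, 14.5% lay higher and 13.9% lower without overlap, and no such share was computed over other pairs of genes. The log2 ratio of Idh1 to Idh2, the cytosolic over the mitochondrial enzyme, was 1.73, 1.35 and 1.34 in mTOR-/- libraries and 0.91, 1.13 and 1.12 in WT libraries. The difference was 0.41 (p = 0.1 in a two-sided exact permutation test, and 0.6 after Benjamini-Hochberg adjustment over the 12 pairs). The log2 ratio of Acadm to Acadl, the medium-chain over the long-chain dehydrogenase, was -1.36, -1.02 and -1.13 in mTOR-/- libraries and -1.50, -1.38 and -1.60 in WT libraries. Its difference was 0.32 with the same exact p of 0.1 and adjusted p of 0.6, and mTOR-/- library 1 and WT library 2 nearly met. This exact test cannot go below 0.1 with 3 libraries against 3. Hadha to Hadhb, subunits of 1 protein, spread more between mTOR-/- libraries than between groups, at 3.54, 3.00 and 2.26 against 2.95, 3.34 and 3.14 (difference -0.21, exact p = 0.8).

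**Figure D4:**
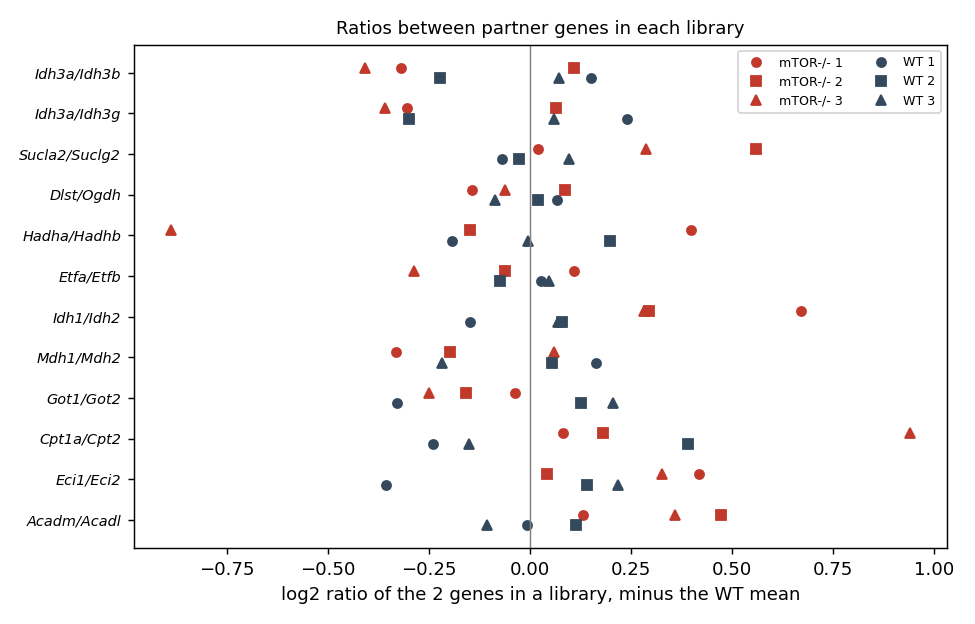
Log2 ratio of the CPM of 2 partner genes in each library, minus the mean of the WT libraries; red marks mTOR-/- and dark blue WT libraries. The groups separate for Idh1/Idh2 and Acadm/Acadl and overlap for the other 10 pairs.

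Other genes of the same pathways were counted from a list of 67, of which 61 were tested. Here 26 were higher and 35 lower, with a median log2 fold change of -0.04, and 2 were called, both lower in mTOR-/- (edgeR's quasi-likelihood test, against the 2.18% and 1.87% of tested genes called higher and lower). The parts of the list leaned differently. Oxidation genes were 11 higher and 3 lower (median 0.25), and glutamate genes 4 and 0 (0.33). Genes of the citrate cycle and its entry were 6 higher and 15 lower (-0.17), and of fatty acid handling 3 and 10 (-0.11). Carnitine genes were 1 higher and 4 lower (-0.03), and regulators 1 and 3 (-0.12). These leanings were not tested. Fabp5, a fatty acid binding protein that carries lipids inside macrophages and skin cells (chromosome 3, 10012548 to 10016607), was at 143, 110 and 125 CPM in mTOR-/- libraries and 213, 245 and 273 CPM in WT libraries. All mTOR-/- values were well below the WT values, and the transcript fell by 0.95 on the log2 scale (standard error 0.13, edgeR adjusted p = 0.00411). Mpc1, a subunit of the carrier that brings pyruvate into mitochondria (chromosome 17, 8282904 to 8297661), was at 17.8, 19.2 and 20.7 CPM against 33.9, 31.7 and 30.7 CPM. It fell by 0.74 on the log2 scale, also without overlap (standard error 0.14, edgeR adjusted p = 0.0198), and this call was lost under the replicate block and without mTOR-/- library 1 or any WT library. Its partner subunit Mpc2 had a log2 fold change of 0.16 (edgeR adjusted p = 0.667). A test of the difference between Mpc1 and Mpc2 was not run.

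The next smallest p-values in that list did not pass the test. Acox3, a peroxisomal acyl-CoA oxidase, was at 223, 210 and 298 CPM in mTOR-/- libraries and 165, 170 and 169 CPM in WT libraries (log2 fold change 0.54, edgeR adjusted p = 0.0558). Hsd17b10, a mitochondrial dehydrogenase of branched and short chains, was at 31.6, 31.6 and 24.1 CPM against 38.8, 42.9 and 47.5 CPM (log2 fold change -0.57, edgeR adjusted p = 0.0746). Neither overlapped between groups, and both were called with DESeq2. Pdhb, of pyruvate dehydrogenase, was at 82.3, 83.1 and 79.3 CPM against 99.2, 95.8 and 104 CPM (log2 fold change -0.29, edgeR adjusted p = 0.119). Crot, the peroxisomal carnitine octanoyltransferase, was at 41.4, 41.8 and 46.5 CPM against 55.0, 53.0 and 56.1 CPM (log2 fold change -0.34, edgeR adjusted p = 0.125). In both genes every mTOR-/- library was lower. The succinate dehydrogenase genes Sdha, Sdhb, Sdhc and Sdhd had log2 fold changes of 0.20, -0.13, -0.17 and -0.32, with adjusted p from 0.135 to 0.520 (edgeR). Ppargc1a, the better known coactivator, had at most 3 counts in any library and was not tested.

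Summed markers of some other cell types differed between the groups, while those of neutrophils and T cells overlapped. The 6 mast cell and basophil markers summed to 239 to 295 CPM in mTOR-/- libraries and 876 to 1055 CPM in WT libraries, and 3 of them, Cpa3, Kit and Mcpt8, were called lower. Cpa3 was the largest part of that sum, at means of 134 and 693 CPM. Ms4a2, Prss34 and Fcer1a overlapped between groups and were not called, with log2 fold changes of -0.65, -0.57 and 0.45. Neutrophil markers summed to 1760 to 2153 CPM against 1565 to 1887 CPM, with Ly6g called higher and Ltf and Ngp lower. Mmp8 made up most of this sum, at means of 1564 and 1237 CPM, so the sum says little about the other neutrophil markers. It was higher in every mTOR-/- library but was not called (edgeR adjusted p = 0.180). Dendritic cell markers summed to 66.0 to 70.2 CPM against 16.4 to 43.6 CPM, with Ccr7 called higher and Siglech at 0. Most of that sum was Ccr7, at means of 58.6 and 24.5 CPM. The other tested markers, Flt3, Clec9a and Zbtb46, overlapped between groups, with log2 fold changes of -0.46, -0.39 and 0.81. Macrophage markers summed to 535 to 656 CPM against 662 to 744 CPM, with 0 of the 4 tested markers called and Marco at 0. Inside that list Adgre1 was lower, at means of 481 and 614 CPM, and Vcam1 higher, at 123 and 87.8 CPM. Neither passed the test (edgeR adjusted p = 0.145 and 0.0888). Erythroid markers summed to 0.814 to 1.23 CPM against 2.98 to 5.62 CPM, B cell markers to 1.77 to 4.28 CPM against 1.28 to 1.64 CPM, and T cell markers to at most 0.244 CPM. Their part in the values of Fabp5, Mpc1 and the members was not tested.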

How the data were processed

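Bulk RNA-seq of M-MDSCs was analysed in 3 mTOR-/- and 3 WT libraries. The authors deposited raw counts of reads per gene and FPKM values per library. The study's methods name Bowtie2, HTSeq and mm10, whereas the submitters' processing notes name HISAT2 2.0.4, StringTie 1.3.0, GRCm38.p4 and mm9, and which tool made which value was not resolved. For the members with counts, each deposited FPKM was proportional to its count over the library total (coefficient of variation at most 0.00137%). The authors' own fold changes, p-values and q-values were not used, nor were 24 repeated columns of per-library values.

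The members and lists were chosen with earlier results of these data known. Counts were filtered with filterByExpr (minimum 10, total 15), scaled by TMM (0.986 to 1.01) and compared with the quasi-likelihood F test of edgeR 4.0.16 in R 4.3.3 (limma 3.58.1, coefficient of variation 19.0%), with Benjamini-Hochberg adjustment over 12537 of 34745 genes. No source names a block, and none was used. The test was checked on simulated data with changes of at least 2-fold, which does not cover changes as small as those of the members. Partner ratios used log2 CPM with a prior count of 2. Named with values were members called, the 5 largest changes each way, regulators, Cd36, Cpt1a, Cs, Hadha, Hadhb, pairs without overlap, the 6 other pathway genes with the smallest p, and Mtor. The genes Mpc2, Nrf1, Ppargc1a and the succinate dehydrogenase subunits were named after their values were seen. Gene positions are those of the deposited table, and 31 of the 41 members had the same start and end in GENCODE M21 (GRCm38), which gave the exon overlaps. Promoters came from RefSeq (GRCm38.p6). Of the totals of 12317507 to 14768126 counts, a floor of 3 counts was 0.203 to 0.244 CPM. Alternatives were DESeq2 1.42.0, other scalings and filters, each library left out, the replicate number as a block and, added after seeing the data, levels per exon base.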

Additional observations from a re-analysis of the deposited data

How the results depend on the processing

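No member was called with an adjusted p under 0.05 in 11 of 12 other fits, and DESeq2 called 1, Acadl (log2 fold change -0.37, adjusted p = 0.0199; range over the other alternatives that keep all libraries up to 0.172, and 0.0697 to 0.267 with a library left out). Calls over all genes numbered 507, 1144 with DESeq2, 279 with the replicate block and 173 to 513 with each library left out. Of the other pathway genes, 2 were called, 4 with DESeq2, 1 (Fabp5) with the replicate block and 1 to 3 with a library left out, where leaving out any WT library gave 1. Fabp5 was called in 12 of 12 other fits, Mpc1 in 7, Acox3 in 6, and Hsd17b10 and Lipa in 1 each. The members' median log2 fold change was -0.12 to -0.00 with a library left out. The log2 fold change of Ppargc1b ran from -0.48 to 0.19 and that of Hadha from -0.16 to 0.15 with a library left out, so the sign of each turned. Partner pairs without overlap were 2, and 2 to 5 with a library left out (5 without mTOR-/- library 2). Groups with fewer libraries overlap less readily by design, so these counts cannot be compared directly. Any further cause was not tested. No pairing by replicate number was seen (correlations of same-numbered deviations -0.08, -0.03 and -0.06), which does not exclude one. The block left 0 members called. With 3 libraries per group the members' standard errors ran from 0.08 to 0.51, which sets the smallest change that could be seen for each.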

Other observations

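Single libraries stood out for some other pathway genes, chosen after their values were seen. Cpt1b, the muscle form of carnitine palmitoyltransferase, had 12 counts in mTOR-/- library 1 and 120 to 147 counts in the other 5 libraries. Acadsb, the dehydrogenase of short branched chains, had 953 counts in WT library 2 and 421 to 483 counts elsewhere. Pdp1, a phosphatase that activates pyruvate dehydrogenase, had 119 counts in mTOR-/- library 2 and 321 to 521 counts elsewhere. None of the 3 genes passed the test between groups (edgeR adjusted p = 0.772, 0.377 and 0.358).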
